A study of Homo sapiens with 8 samples.

Results

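VEGFC, ANGPTL4, SLC2A1, SGK1, FURIN and LRP1 are 6 genes of vessel growth, glucose uptake and stress response. The study had chosen them, among others, for lower m6A after METTL3 was silenced. It drew them from genes shared by its m6A and RNA sequencing, for links to the function and inflammation of retinal pigment epithelium. Their peaks were taken from the authors' deposited table of differential m6A peaks by Ensembl gene ID, namely ENSG00000150630, ENSG00000167772, ENSG00000117394, ENSG00000118515, ENSG00000140564 and ENSG00000123384 in the same order. Each of the 6 IDs has 1 listed peak, which gives 6 of the 1262 peaks and 6 of the 1103 gene IDs in the table.

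The cells were ARPE19, a human retinal pigment epithelium line, selected for stable carriage of a lentivirus that silenced METTL3 (shMET) or of the negative control (shNC). Every group had been given LPS at 1 μg/ml for 24 h, so cells without LPS are in neither group. MeRIP-seq pulls down fragmented mRNA with an antibody against m6A (IP) and compares its reads with those of untouched fragments (input). There were 3 IP libraries and 1 input library for shNC+LPS and as many for shMET+LPS, 8 libraries in all. The deposited table combines the libraries of a group, so it shows neither a spread between replicates nor a depth, and no test was added to the authors' own. All fold enrichments, log2 fold changes, p-values and q-values below are the authors' values from that table, and positions are 1-based on hg38, the build in the submitters' processing notes. The table holds no expression values, so markers of the cell type could not be looked at.

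The m6A mark is written on mRNA by a complex of METTL3 and METTL14, is removed by FTO and is read by proteins that alter the splicing, translation and decay of the transcript. VEGFC is a secreted ligand of the receptor FLT4 that drives growth of lymphatic vessels, ANGPTL4 is a secreted inhibitor of lipoprotein lipase, and SLC2A1 is the glucose transporter GLUT1, which carries glucose across the retinal pigment epithelium. SGK1 is a kinase induced by serum, glucocorticoids and cell stress, FURIN is a protease that cuts proproteins such as that of VEGFC, and LRP1 is a large endocytic receptor of the LDL receptor family.

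All 6 peaks carried a negative log2 fold change, as did 72.1% of all listed peaks. A value at or under -1 was listed for 5 of the 6, LRP1 being the exception, and for 60.5% of all listed peaks. A q-value of the comparison at or under 0.01 was listed for 2 of the 6, SLC2A1 and SGK1, and for 68.5% of all listed peaks. Nothing can be read from these counts, since the genes had been chosen for lower m6A and the table lists only peaks called different. The table leaves unstated which group is the numerator of the fold change. A negative value was taken as lower in shMET+LPS because the study had selected these genes as lower. Other genes it selected with them were also listed as negative, such as ETS1 (-2.13), TLR4 (-3.23) and NR2F1 (-1.19 and -0.573). The paper also reports a lower m6A rate in METTL3-silenced ARPE19 cells, and more genes with lower than with higher m6A. If the sign ran the other way, all directions below would be the opposite. In bulk cells, fewer cells with a methylated transcript and less methylation per cell cannot be told apart.

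Beside the whole list, 4 of the 6 peaks were narrow and weakly enriched, and they ranked higher in enrichment beside peaks of similar width. The median fold enrichment of the 6 over input was 3.18, against 8.43 over all 1262 peaks and 6.22 over the 910 negative ones. A fold enrichment of at least 5 was reached by 2 of the 6, ANGPTL4 and LRP1, against 67.7% of all peaks and 58.6% of the negative ones. Their median spliced width, the sum of a peak's blocks, was 210 nt, against 419 nt over all peaks and 360 nt over the negative ones. Their median log2 fold change was -2.40, against -1.29 over all peaks and -1.69 over the negative ones. When the list was split into 5 groups of similar width, SLC2A1 stood at percentile 11.5 of fold enrichment in its group, SGK1 at 43.1, VEGFC at 51.4, FURIN at 68.4, LRP1 at 77.4 and ANGPTL4 at 86.5. The group of SLC2A1 holds mostly wider peaks, and among the 33 peaks as narrow as its own or narrower, 10 had as low an enrichment, which is percentile 30.3. The median q-value of the 6, at 0.0165, was larger than the 0.00209 of all peaks.

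**Figure D1:**
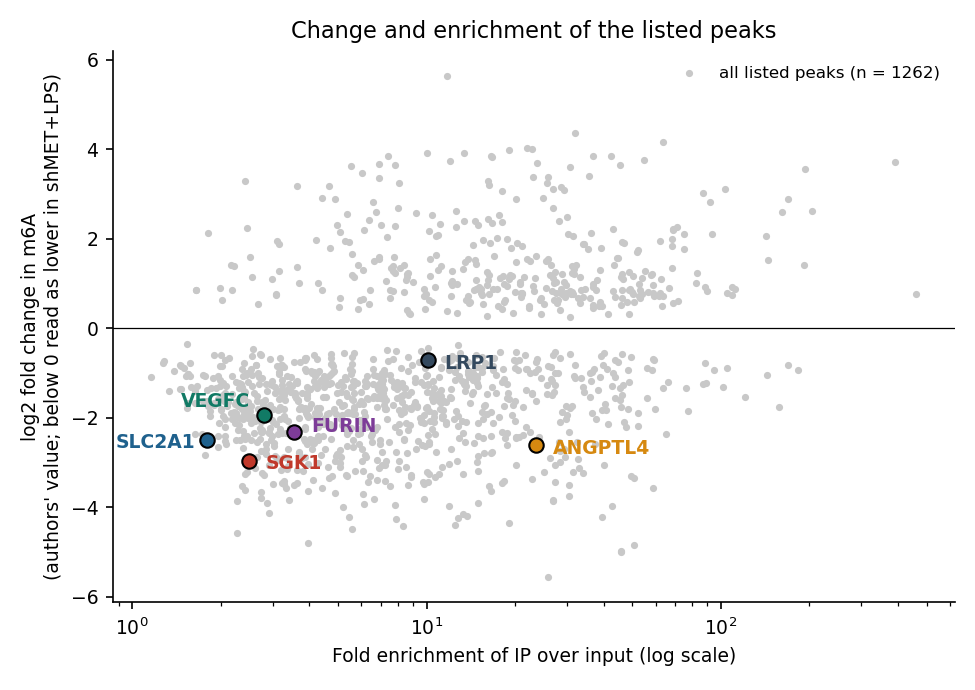
Each point is a listed peak, with its fold enrichment of IP over input on a log axis and the authors' log2 fold change in m6A; the 6 genes are coloured. SLC2A1, SGK1, VEGFC and FURIN lie at the left with fold enrichments from 1.80 to 3.55, and ANGPTL4 and LRP1 lie further right at 23.5 and 10.1.

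Among the secreted factors, the peak of ANGPTL4 lies on the plus strand at chr19:8373925-8374343 in 1 block of 419 nt. It ends 27 nt before the 3' end of the RefSeq gene and starts 9770 nt after its start. Its fold enrichment of 23.5 was the highest of the 6 and stood at percentile 78.1 of the list, where a percentile is the share of listed peaks at or under the value. The log2 fold change of -2.62 stood at percentile 13.3 and corresponds to 6.15-fold lower m6A, or 16.3% of the control. Its log10 q-value of -1.30 is the largest in the table and is shared by 3 peaks. ANGPTL4 thus joined a strongly enriched peak and a large change to the largest q-value of the list.

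VEGFC lies on the minus strand of chromosome 4, and its peak at chr4:176729562-176792189 joins blocks that are far apart on the genome. A block of 25 nt lies 733 nt after the RefSeq start, at 0.681% of the gene's span. The other block has 185 nt and lies 63176 nt after the start, at 57.8% of the span, beyond a gap of 62418 nt. The spliced width is therefore 210 nt, at percentile 14.9, although the peak spans 62628 bases of genome. In the authors' deposited table the fold enrichment was 2.81, at percentile 14.4 of all peaks and 51.4 among peaks of similar width, and the log2 fold change was -1.95, at percentile 28.1. That change is 3.86-fold lower, or 25.9% of the control, with a q-value of 0.0112. On the genome, most of the bases of this peak lie deep in the gene. It lies within 1000 genomic bases of a start only through its short block. The gap was taken as an intron, so the blocks are adjacent in the spliced peak. Genomic distances here are therefore not distances along the mRNA, where the place of the peak was not analysed.

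**Figure D2:**
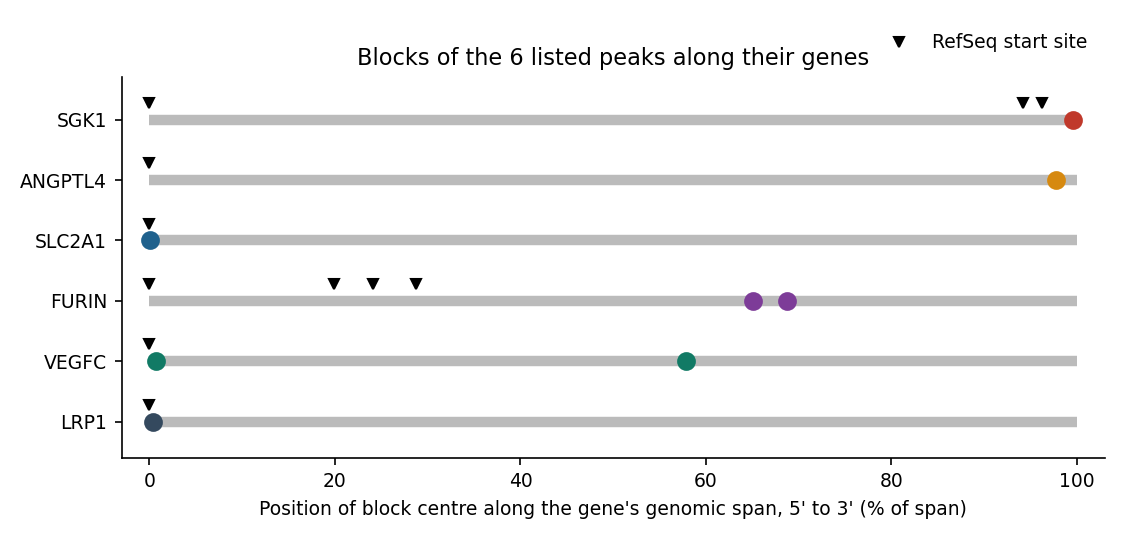
Each grey bar is the genomic span of a gene from its 5' end (0%) to its 3' end (100%), with coloured points at the centres of the peak's blocks and triangles at RefSeq start sites. SLC2A1, LRP1 and the short block of VEGFC lie at the 5' end, SGK1 and ANGPTL4 lie at 99.6% and 97.7%, and the blocks of FURIN lie at 65.1% and 68.7%.

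SLC2A1 had the narrowest and least enriched peak of the 6. It lies on the minus strand at chr1:42958787-42958907 in 1 block of 121 nt, and it holds the RefSeq start of the gene, with 39 nt before the start and 82 nt from the start onwards. Only 33 listed peaks were as narrow and 34 had as low a fold enrichment, which was 1.80. The log2 fold change was -2.49, 5.62-fold lower or 17.8% of the control, and the q-value of 4.17e-08 was the smallest of the 6. The peak's own p-value for IP over input, 1.9e-05, was by contrast among the larger ones, with 57 peaks at or above it. The change between the groups was thus listed with a smaller q-value than the p-value of the peak itself.

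Because this peak reaches past the annotated start, the sequence just before the start is shown from RefSeq (GRCh38.p14, minus strand, chr1:42958878-42958907), from 39 to 10 nt before the start and wholly under the peak, with capitals marking the letters TATAAA.
SLC2A1: cggggtccTATAAAcgctacggtccgcgcg
TATAAA begins 31 nt before the start. It was found on the transcript strand of the same 89-nt stretch, the part of the peak inside the window, in 3% of 35116 RefSeq start windows and on either strand in 4.21%. GGACT, a common form of the m6A consensus, was found on neither strand of that stretch in SLC2A1, and 8.53% of the windows hold it there on the transcript strand and 15.9% on either. It was not in the rest of the 300-nt SLC2A1 window. GGAC, which GGACT contains, was found in the 89-nt stretch of SLC2A1 0 times on the transcript strand and 2 times on the other, and 29.8% of the windows hold it in that stretch on the transcript strand and 49.9% on either. In the whole window it was found 1 time on the transcript strand and 4 times on the other. The rest of the peak lies outside the window and was not searched. These matches describe letters and are not sites.

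Of the 979 listed peaks whose gene has a start in the RefSeq windows used here, 45 hold such a start, and 42 of these were negative (93.3%, 95% Wilson interval 82.1% to 97.7%, for counting error alone). Their median fold enrichment was 8.93. SLC2A1 and VIM-AS1, with 1.80 and 1.55, had the lowest values among these peaks. The VIM-AS1 peak shares bases with a listed peak of VIM on the opposite strand, so the region is listed for both genes. A peak of JUN, a stress-induced transcription factor, had the same width of 121 nt and a fold enrichment of 1.89, and its log2 fold change was -1.68. VIM-AS1, VIM and JUN were chosen after their values were seen.

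SGK1, the kinase, had the largest change of the 6. Its peak lies on the minus strand at chr6:134169725-134169934 in 1 block of 210 nt, 469 nt before the 3' end of the gene. RefSeq gives SGK1 3 starts over a span of 148857 bases, and the nearest lies 4932 nt before the peak. In the authors' deposited table the log2 fold change was -2.97, which is 7.84-fold lower or 12.8% of the control, with a q-value of 0.00182. As low a value was listed for 114 of the 1262 peaks, which puts SGK1 at percentile 9.03, and for 10 of the 136 negative peaks near a 3' end. The fold enrichment of 2.50 stood at percentile 10.7 of all peaks but at percentile 43.1 among peaks of similar width, so it was low for the list and not low for a peak as narrow.

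FURIN, the protease, has a peak of 2 blocks on the plus strand at chr15:90878244-90878853. The blocks have 61 and 90 nt with a gap of 459 nt, and the 151 nt in all stood at percentile 6.26 of width. The peak lies inside the gene, 5390 nt after the nearest of 4 RefSeq starts and 4604 nt before the 3' end. In the authors' deposited table the log2 fold change was -2.31, which is 4.96-fold lower or 20.2% of the control, with a q-value of 0.0407. Its own p-value of 7.2e-05 for IP over input was the largest of the 6, and 33 peaks of the list had one as large. The fold enrichment of 3.55 stood at percentile 21.8 of all peaks and at percentile 68.4 among peaks of similar width, so among peaks as narrow it ranked above the middle.

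LRP1, the receptor, stood apart in the size of its change. Its peak lies on the plus strand at chr12:57128643-57128973 in 1 block of 331 nt, from 160 to 490 nt after the RefSeq start. In the authors' deposited table the log2 fold change was -0.72, which is 1.65-fold lower or 60.8% of the control, with a q-value of 0.0219. Among the 158 negative peaks near a start, 154 were at or under this value, so few of them changed less. The fold enrichment of 10.1 stood at percentile 55.3, and the peak's own p-value of 1e-149 was the smallest of the 6. LRP1 therefore paired the smallest p-value over input with the smallest change.

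**Figure D3:**
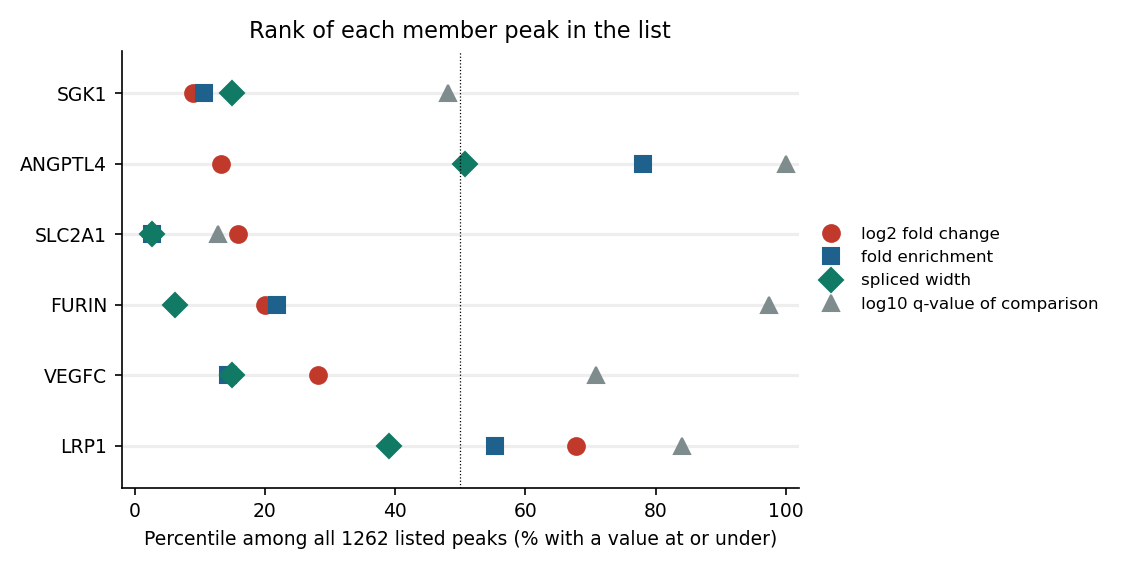
Points give the percentile of each peak among all 1262 listed peaks for the log2 fold change, the fold enrichment, the spliced width and the log10 q-value of the comparison. SGK1 has the lowest percentile of change (9.03), SLC2A1 the lowest of enrichment and width (2.69 and 2.61), and ANGPTL4 the highest of the q-value (100).

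None of the 6 peaks shares a base with another listed peak or touches the RefSeq span of another gene. By position, SLC2A1, VEGFC and LRP1 have a block within 1000 genomic bases of a RefSeq start, SGK1 and ANGPTL4 lie within 1000 bases of the 3' end, and FURIN lies near neither. Of the 979 listed peaks that could be placed in this way, 18.4% were near a start, 60.8% were inner and 19.5% were near the 3' end, and 13 were near both. Peaks near a start were negative in 87.8% of 180 cases (95% Wilson interval 82.2% to 91.8%). Inner peaks were negative in 65.4% of 595 (61.5% to 69.1%) and peaks near the 3' end in 71.2% of 191 (64.4% to 77.2%). These intervals are for counting error alone, since some peaks overlap or share a gene, and the places were chosen after seeing the data. The median log2 fold change of all peaks near a start was -1.86 and that of the negative ones was -1.98. SLC2A1 lay below both medians, VEGFC lay between them with 83 of 158 negative peaks at or under its value, and LRP1 lay above both. VEGFC was no longer near a start when 500 bases were allowed, which left 2 of the 6 there. Near the 3' end, 23 of 136 negative peaks were at or under the value of ANGPTL4. FURIN ranked in the lower part of the inner peaks, with 104 of 389 negative ones at or under its value, and SLC2A1 had 51 of 158 near a start. Which of these positions is coding or untranslated was not analysed here.

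**Figure D4:**
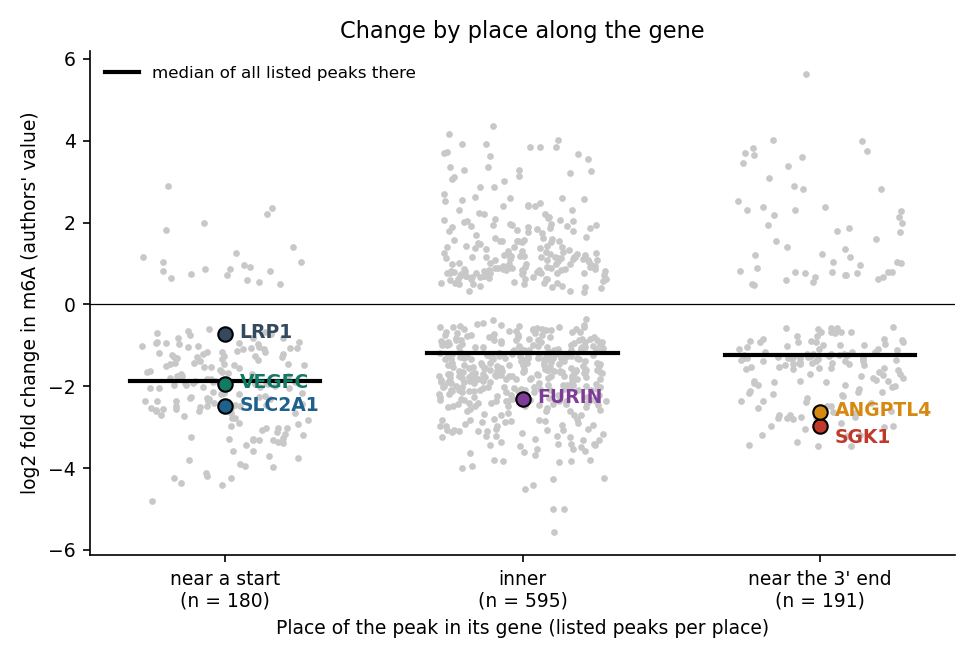
Grey points are the listed peaks near a RefSeq start (180), inner (595) and near the 3' end (191), by the authors' log2 fold change, with a black line at the median of each place and the 6 genes coloured. SGK1 and ANGPTL4 lie well below the median near the 3' end (-1.24), while LRP1 lies above that near a start (-1.86).

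Among genes with related roles, 26 of the 180 looked up had a listed peak, 19 with lower and 7 with higher m6A. The 19 are 73.1% of the 26, near the 72.1% negative among all listed peaks. Besides the 6 genes chosen for lower m6A there were 20, of which 13 (65%) were lower and 7 higher. The other 154 genes had no listed peak under their name, which does not say that they lack m6A. Only 1058 of the 1103 IDs could be named, so a peak under an unnamed ID would be missed. In the group of VEGF and angiopoietin genes, 3 of 26 had a peak, all lower, and 2 of the 3 had been chosen for that. Beside VEGFC and ANGPTL4 this was VEGFA, the main ligand for growth of blood vessels, with a log2 fold change of -1.20 at a peak enriched 48.7-fold over input. The VEGFA peak was thus far more enriched than that of VEGFC and changed less. It was also wider, at 779 nt against 210 nt, and it was not ranked among peaks of similar width.

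Of 33 genes of glucose uptake and glycolysis, 3 were lower and 2 higher. Without SLC2A1, chosen for lower m6A, 2 were lower and 2 higher (50% lower, against 72.1% negative among all listed peaks). PFKL and PFKP, subunits of phosphofructokinase, were lower like SLC2A1, PFKL with -1.95 and -1.58 at its 2 peaks and PFKP with -2.01. SLC2A12, another glucose transporter, was higher with 2.44, and SLC16A1, a carrier of lactate, was higher with 0.33. The transporters SLC2A1 and SLC2A12 were therefore listed with opposite signs. Of 26 genes around SGK1, 2 were lower and 2 higher. Without SGK1, itself chosen for lower m6A, 1 was lower and 2 higher (33.3% lower, against the same 72.1%). NEDD4L, a ubiquitin ligase that SGK1 phosphorylates, was higher with 1.52, and the SGK1 substrate FOXO3 was higher with 1.87.

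Around FURIN, 5 of 23 convertase and substrate genes had a peak, 4 lower and 1 higher, or 3 lower and 1 higher (75% lower, against the same 72.1%) without FURIN, which had been chosen for lower m6A. Of these genes other than FURIN, TGFB1, MET and MMP14 were lower with -2.54, -1.72 and -0.996, and ADAM10 was higher with 2.05. The TGFB1 peak has 2 blocks of 241 nt in all over chr19:41302644-41330486 and was placed at the RefSeq 3' end of the gene. It shares bases with another listed peak, and which gene its value belongs to was not tested. Around LRP1, 3 of 26 genes of its receptor family and ligands had a peak, all lower, LRP1 itself having been chosen for that. Without LRP1 there were 2, both lower, against 72.1% negative among all listed peaks. PLAT, a plasminogen activator that LRP1 takes up, had -1.38.

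Of 26 genes of hypoxia and stress, 4 were lower and 1 higher (80% lower, against 72.1% negative among all listed peaks). ATF4, a transcription factor of the integrated stress response, had -4.36, a larger change than any of the 6 genes. EGLN1 and EGLN2, prolyl hydroxylases that mark HIF for decay, were lower, EGLN1 with -2.28 and EGLN2 with -1.87, -1.77 and -1.36 at 3 peaks under 2 IDs. The first 2 of these EGLN2 peaks share bases and are the same region listed again. ADM, a vasodilator peptide induced by hypoxia, had -0.78, and NFE2L2, the regulator of the antioxidant response, had 0.73. Of 20 genes of the m6A machinery only WTAP, a partner of METTL3, had a listed peak, with 2.20.

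**Figure D5:**
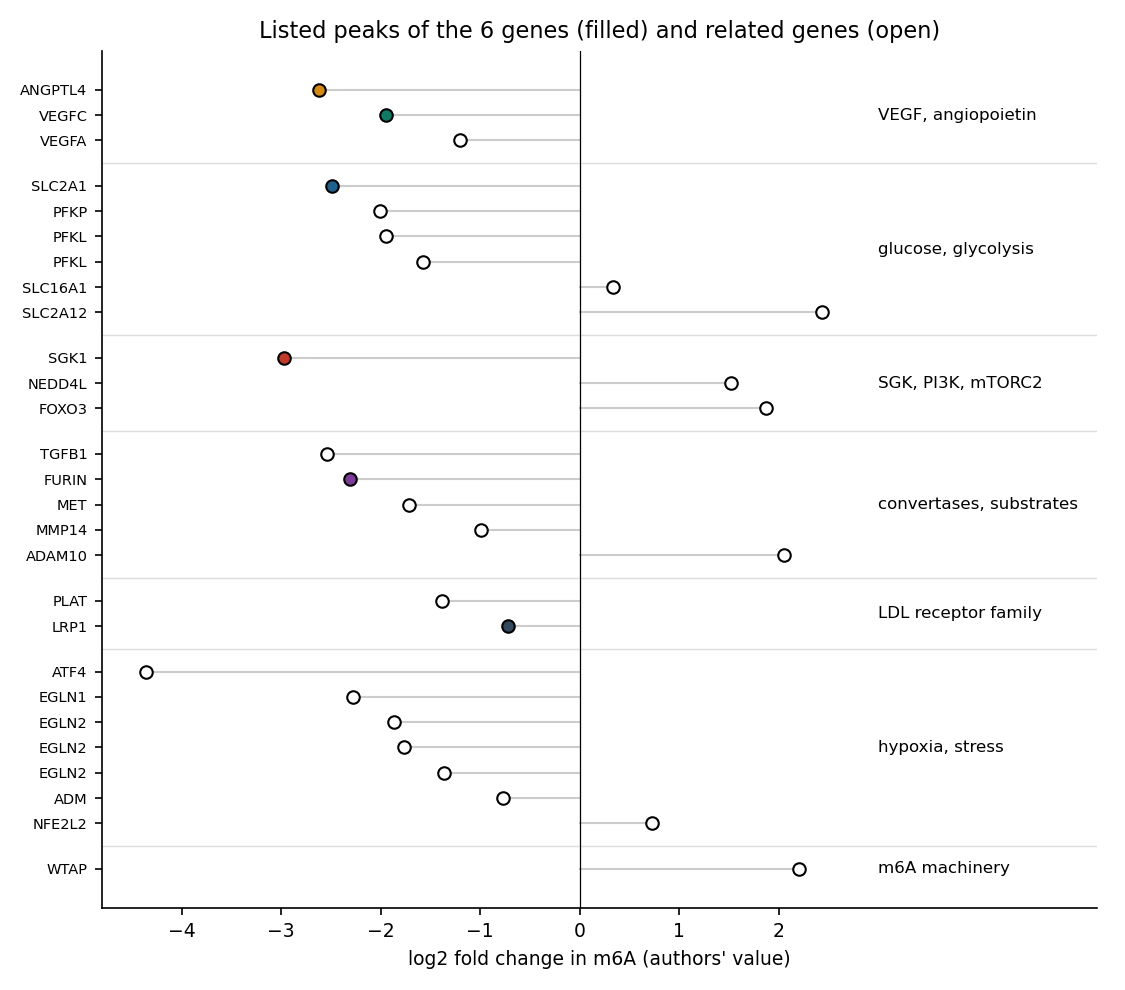
Points give the authors' log2 fold change of the listed peaks of the 6 genes (filled) and of the related genes reported here (open), grouped by role. Values run from -4.36 at ATF4 to 2.44 at SLC2A12.

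For each of the 6 peaks, the most alike listed peak of another named gene was found among 1208 by distance over the percentile ranks of log2 fold change, fold enrichment and width. SLC2A1 was closest to PNMA2 (2.72 percentile points), SGK1 to DBNL (3.85), ANGPTL4 to LINC00189 (4.30), VEGFC to NDST1 (4.38) and FURIN to AKAP17A (4.78). LRP1 was the least matched, at 9.32 points from PLK2. The PNMA2 peak had the same width as that of SLC2A1 and a log2 fold change of -2.52, and it was enriched 2.07-fold over input.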

How the data were processed

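For MeRIP-seq, 3 IP libraries and 1 input library of either group were merged into 1 deposited table of differential peaks with 18 columns. The authors gave each peak a p-value, a fold enrichment (a ratio) of IP over input and a log2 fold change of m6A. The p-value and q-value of this change are scores on a log10 scale in the deposited table. These are the authors' own values, deposited without those of single libraries, and the libraries' depth and any adjustment for it are not given in the sources used here. The submitters' processing notes name hg38, CASAVA, fastp 0.19.11 and MACS2 2.1.0, with no role. The table's column names resemble those of the R package exomePeak, which no source names. For the peaks' own significance, the log10 columns were not used, since 69 and 166 cells hold a spreadsheet error text.

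Positions were turned into 1-based coordinates, and width is the sum of blocks. IDs of the 6 genes were matched exactly. Other IDs were named by the only RefSeq gene of GRCh38.p14, on a strand not known to be the other, whose span holds all their peaks (49 by touch only), which named 1058 of 1103 IDs, 54 of them sharing a name, and 1209 peaks. The start windows used here covered the genes of 979 peaks, which were classed as within 1000 bases of a start, of the 3' end or of neither, classes chosen after seeing the data, and the other 283 peaks were not placed. The start windows of all 6 genes were matched by RefSeq gene. The genes and lists were chosen with earlier results of these data known. Genes named are the 6, those of the lists with a listed peak, the most alike peak for each, and VIM-AS1, VIM and JUN, picked with their values known. The peaks of 2 list genes are in the counts and are not reported here. Percentiles, counts and medians were computed with Python 3.11.15, pandas 2.3.3, numpy 2.4.6 and scipy 1.17.1 and drawn with matplotlib 3.10.9, and the arithmetic was checked on made data. Alternatives were other limits of log2 fold change, q-value and fold enrichment, other sets of peaks to rank in, genomic span and leaving out each gene. The transcript region and the GGACT motif under whole peaks, and a match by Ensembl ID for related genes, were not analysed here.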

Additional observations from a re-analysis of the deposited data

How the results depend on the processing

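With a q-value at or under 0.01 required, the share of negative peaks in the list was 74.6%, and 2 of the 6 peaks, those of SLC2A1 and SGK1, were left to count as negative. The number of the 6 within the q-value limit was 1 at a limit of 0.001 and 4 at 0.03. A log2 fold change limit of -0.5 gave 6 peaks and a limit of -2 gave 4, within 1.5 times the 5 at -1. At a fold enrichment limit of 2, 5 of the 6 passed, all but SLC2A1. The median width was 375 nt when genomic span was used, through the blocks of VEGFC and FURIN that lie apart. Of 61 percentiles recomputed, 23 left the 95% Wilson interval of the first value, 16 of 18 when ranked among negative peaks and 6 of 6 for enrichment among peaks of similar width, and SLC2A1 among peaks as narrow (chosen after seeing the data, 2.69 to 30.3), the largest by 46.6 points for FURIN (21.8 to 68.4). With 1 peak per gene or overlapping peaks kept once, 0 of 18 left it, with shifts of up to 1.8 and 0.4 points. Outside these 61, 71 of the 79 peaks as narrow as FURIN or narrower had as low an enrichment, a larger shift than 46.6 points. The same count was 432 of 492 for LRP1, 606 of 640 for ANGPTL4, 110 of 188 for VEGFC and 93 of 188 for SGK1. Limits of 500 and 2000 bases for a place near a start, and overlapping peaks kept once for that place, were chosen after seeing the data. At 500 bases VEGFC was not near a start, which left 2 of the 6, and at 2000 there were 3. The share of negative peaks near a start ran from 87% to 89.6% over these. The transcript region, the motif under the peaks and the match by Ensembl ID were not run. No paired analysis was possible because libraries were already combined in the deposited table, and for that reason no replicate was left out. Depth is unknown, so which peaks rest on few reads was not tested.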
